A study of Caenorhabditis elegans with 2 samples.

Results

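The snoRNA genes of the nematode Caenorhabditis elegans were examined for peaks of the homeodomain protein CEH-82. They are all 346 genes of biotype snoRNA on the 6 nuclear chromosomes of the WBcel235 annotation (Ensembl release 115), out of 46890 annotated genes. The best peak of a gene was the one with the highest signal whose summit lay within 200 bp of the gene, taken from the list thresholded by reproducibility (2052 peaks) and otherwise from the pooled relaxed list (30000 peaks). The signal is the authors' score per peak, which is never negative and has its own scale in each list. Chromatin was collected from whole L1 larvae, sexes mixed, of strain OP212, which carries the allele unc-119(ed3) III and the transgene ddEx58 and makes CEH-82 (F45C12.2) with GFP-FLAG at its C terminus. All values come from this 1 transgenic line, in 2 biological replicates, with no other strain or treatment. No control library was analysed here, so the signal at snoRNA genes without the tagged protein is not known.

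Small nucleolar RNAs guide the chemical modification of other RNAs, above all ribosomal RNA: box C/D snoRNAs guide the methylation of ribose, and box H/ACA snoRNAs guide the change of uridine to pseudouridine. Many animal snoRNAs lie in introns of host genes and are cut out of the host transcript, while others are transcribed from promoters of their own. RNA polymerase III reads tRNA genes through an internal A box and B box, while snRNA genes of animals, some read by RNA polymerase II and some by III, have an element upstream of the start. In these annotations 169 snoRNA genes were intronic (inside a protein-coding gene and clear of its exons), 124 were independent (clear of protein-coding genes), and 53 overlapped an exon. The genes were 54 to 344 bp long, with a median of 130 bp.

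The DNA upstream of the strongest independent gene and of the 5 strongest intronic genes is shown first, since their summits lie there. Each run covers the 90 bases before the annotated snoRNA start in ce11, written on the strand of the snoRNA. Capitals mark an element in 2 pieces, here called the bipartite element: GNAACNCG, then 5 bases of any kind, then TGTC. Its letters were chosen after these sequences had been seen. Y53F4B.47, an independent gene, has its run at chrII:15025894-15025983 (minus strand). The other runs belong to intronic genes: ZK994.7 at chrV:8500489-8500578 (plus strand), smy-2 at chrIV:9511467-9511556 (minus strand), C08D8.3 at chrV:8349018-8349107 (plus strand), C16D9.11 at chrV:8228970-8229059 (minus strand) and W04D2.7 at chrV:12491190-12491279 (plus strand).
Y53F4B.47: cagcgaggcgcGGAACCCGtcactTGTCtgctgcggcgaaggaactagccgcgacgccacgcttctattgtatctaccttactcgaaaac
ZK994.7: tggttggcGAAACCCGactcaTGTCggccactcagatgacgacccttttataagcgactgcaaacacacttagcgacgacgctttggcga
smy-2: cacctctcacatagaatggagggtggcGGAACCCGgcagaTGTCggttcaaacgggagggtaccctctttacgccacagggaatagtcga
C08D8.3: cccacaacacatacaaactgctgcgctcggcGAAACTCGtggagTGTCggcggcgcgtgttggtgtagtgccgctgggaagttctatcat
C16D9.11: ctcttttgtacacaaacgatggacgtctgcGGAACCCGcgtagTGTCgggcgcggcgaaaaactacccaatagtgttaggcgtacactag
W04D2.7: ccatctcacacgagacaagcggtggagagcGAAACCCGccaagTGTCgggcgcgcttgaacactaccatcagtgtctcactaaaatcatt

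Another group of snoRNA genes had an A box and a B box around the start. The genes shown here have them in the order and on the strand of a tRNA gene. In the next 3 runs capitals mark the A box first and the B box, GTTCNANNC, second. Each run covers 90 bases before the start and the first 20 bases of an intronic snoRNA gene: Y43F8C.22 at chrV:19643168-19643277 (minus strand), T03F7.8 at chrV:11314168-11314277 (plus strand) and M106.6 at chrII:10840227-10840336 (plus strand).
Y43F8C.22: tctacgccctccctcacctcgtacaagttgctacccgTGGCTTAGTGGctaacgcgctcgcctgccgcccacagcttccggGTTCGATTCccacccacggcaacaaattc
T03F7.8: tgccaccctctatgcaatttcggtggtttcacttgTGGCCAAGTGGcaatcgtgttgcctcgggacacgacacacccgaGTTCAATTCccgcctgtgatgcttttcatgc
M106.6: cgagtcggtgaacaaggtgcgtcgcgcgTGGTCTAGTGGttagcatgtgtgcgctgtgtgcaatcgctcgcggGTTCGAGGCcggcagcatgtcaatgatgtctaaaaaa

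Strong peaks also lay at genes with neither. The 110 bases before the independent genes F09G2.14, at chrV:7196581-7196690 (minus strand), and C36E8.11, at chrIII:4004325-4004434 (plus strand), are shown for comparison and hold no match to any of these elements. The summits lie 68 and 67 bp upstream of their starts.
F09G2.14: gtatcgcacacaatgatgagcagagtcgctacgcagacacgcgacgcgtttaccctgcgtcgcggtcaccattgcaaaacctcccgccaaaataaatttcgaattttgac
C36E8.11: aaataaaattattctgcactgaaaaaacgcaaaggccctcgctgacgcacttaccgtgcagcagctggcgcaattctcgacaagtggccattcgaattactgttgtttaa

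Tagged CEH-82 had reproducible peaks at a part of the snoRNA genes. A thresholded peak lay at 75 of 346 genes, or 21.7% (Wilson 95% interval 17.7% to 26.3%), and a relaxed peak alone at a further 90, so that 165 genes (47.7%, interval 42.5% to 52.9%) had a peak of either kind and 181 had none. Among all 25269 annotated genes no longer than the longest snoRNA gene, 2.65% had a thresholded peak and 18.2% a peak of either kind. Most of these short genes, 15363 of them, are piRNA genes, of which 0.104% had a thresholded peak; among the 9560 short genes that are neither piRNA nor snoRNA genes the share was 6.06%. By class, 17.8% of 612 tRNA genes and 13.2% of 129 snRNA genes had a thresholded peak. The snoRNA share was the highest of these values, although the tRNA share lies inside its interval. The class was proposed with earlier results in view, so no test is attached to it. The intervals treat genes as independent and cover counting error only.

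The 75 genes share 74 peaks, because C51F7.3 and C51F7.4 on chromosome V lie beside the same one. Their signals were 22.4 to 137, with a median of 42.1, close to the median of 39.8 over all thresholded peaks. The lowest member inside the list was F30H5.4 at 22.4. The highest genes outside it were Y53F4B.48, T19C4.11, K02C4.8 and T10B9.11, at 21.2, 20.9, 20.9 and 20.8 in the pooled relaxed list. The 90 genes with a relaxed peak alone had a median signal of 7.55, against a median of 6.26 over that whole list. By chromosome, thresholded peaks lay at 14 of 74 genes on I, 17 of 71 on II, 7 of 54 on III, 15 of 59 on IV, 19 of 55 on V and 3 of 33 on X.

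The strongest peak at any snoRNA gene belonged to Y53F4B.47, an independent gene of 80 bp. Its pooled signal was 137, with 33.3 in replicate 1 and 105 in replicate 2, and its summit lay 72 bp upstream of the snoRNA start. The same summit is 149 bp upstream of the start of cmtr-1, which encodes an mRNA cap methyltransferase, so the snoRNA and the coding gene share this peak. F59C6.15 had a pooled signal of 113, with 20.2 in replicate 1 and 90.4 in replicate 2. Its near-identical copy F25H2.15 had 96.0, with 23.8 in replicate 1 and 71.3 in replicate 2. Both carry the bipartite element, as does the third copy, Y67A10A.14, at 45.6. Reads from near-identical copies cannot be told apart by the letters they share, and 11 of the 346 genes, 6 of them with a thresholded peak, belong to such families (an edit distance of at most 10% of the gene's length); without them 69 of 335 genes (20.6%) had a thresholded peak.

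The other strong independent genes stand beside promoters of coding genes. F09G2.14 had a pooled signal of 109, with 21.2 in replicate 1 and 85.9 in replicate 2. Its summit was 268 bp upstream of the start of F09G2.2 and also lay in the promoter window of attf-2. C36E8.11 had 96.5, with 16.7 in replicate 1 and 78.9 in replicate 2, and its summit was 254 bp upstream of tif-1A, whose product is a transcription initiation factor of RNA polymerase I. D2021.6 had 82.2, with 14.4 in replicate 1 and 66.7 in replicate 2, 208 bp upstream of sdha-1, a subunit of succinate dehydrogenase. F39B2.14, which overlaps an exon, had 125, with 31.9 in replicate 1 and 93.7 in replicate 2, and its summit lies in the promoter windows of tmem-107 and the ribosomal protein gene rps-26. Which of the neighbours a shared peak belongs to cannot be told apart in these lists.

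Most of the strongest intronic genes lay over 1000 bp from a coding start. ZK994.7, inside the peroxidasin gene pxn-1, had a pooled signal of 128, with 34.8 in replicate 1 and 93.7 in replicate 2. Its summit was 43 bp upstream of the snoRNA and 5647 bp from the nearest coding start. C08D8.3, inside C08D8.1, had 81.4, with 18.3 in replicate 1 and 65.1 in replicate 2. C16D9.11, inside rol-3, a receptor tyrosine kinase gene, had 78.2, with 17.2 in replicate 1 and 60.2 in replicate 2. W04D2.7, inside the innexin gene inx-11, had 74.8, with 21.7 in replicate 1 and 50.5 in replicate 2. The last 3 summits lay 2601, 2110 and 1775 bp from a coding start, and 38, 53 and 45 bp upstream of the snoRNA. The exception was smy-2, inside C33A12.3, at 81.6, with 15.1 in replicate 1 and 63.1 in replicate 2. Its summit is 43 bp upstream of the snoRNA and 299 bp upstream of an annotated transcript start of the host itself. This summit lies in the promoter windows of C33A12.3 and C33A12.4.

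Most members had a peak in both replicates, which is largely set in advance, since the thresholded list was kept for reproducibility between them. Of the 75 genes, 70 had a peak in both replicate lists and 5 (ZK546.18, F30H5.4, F11A10.9, C27H6.5 and M163.14) in replicate 2 alone. The signal was 2.45 to 34.8 in replicate 1, with a median of 9.85, and 7.03 to 105 in replicate 2, with a median of 34.4. The median ratio of replicate 2 to replicate 1 was 3.51, on scores whose scales differ. Over the 69 distinct peaks found in both lists, log2 signals had a Pearson correlation of 0.58 and a Spearman correlation of 0.59, given as a description, since the points share both libraries. When the 2052 strongest peaks of 1 replicate stood in for the thresholded list, replicate 1 had a peak at 65 of 346 snoRNA genes (18.8%, against 2.55% of short genes) and replicate 2 at 75 (21.7%, against 2.68%). Of the 75 thresholded genes, 61 were in that set in replicate 1, 71 in replicate 2 and 57 in both.

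**Figure D1:**
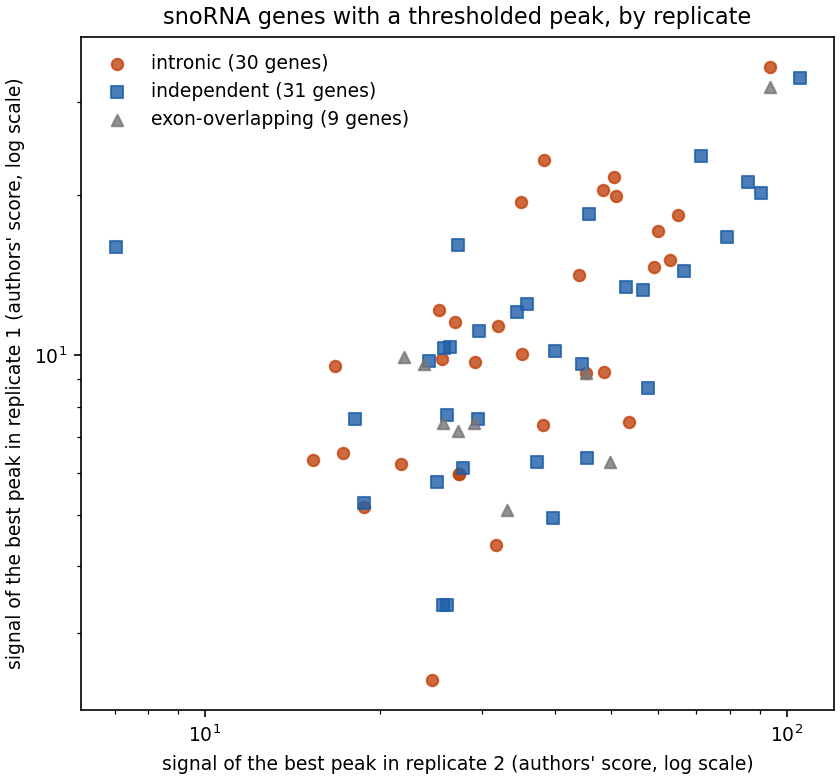
Signal of the best peak in replicate 1 (vertical, log scale, authors' score) against replicate 2 (horizontal, log scale) at the 70 snoRNA genes with a thresholded peak and a peak in both replicate lists, with marker shape for gene class. Values run up to 34.8 in replicate 1 and 105 in replicate 2, and the independent gene at the far left, C26C6.13, has 7.03 in replicate 2 and 16.0 in replicate 1.

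The 3 genes whose ranks differed most between replicates show the spread. C26C6.13, an independent gene, had 16.0 in replicate 1 and 7.03 in replicate 2, and is the only one of the 70 genes with a higher score in replicate 1. T06C12.16 had 3.38 in replicate 1 and 26.1 in replicate 2. T04A8.17, in an intron of ppat-1 on the opposite strand, had 2.45 in replicate 1 and 24.6 in replicate 2. The summits of the replicates differed by a median of 21 bp and at most 132 bp over these members.

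Intronic genes had a thresholded peak in 32 of 169 cases (18.9%, interval 13.7% to 25.5%) and independent genes in 33 of 124 (26.6%, interval 19.6% to 35.0%). The odds ratio was 0.644 (95% interval 0.370 to 1.12), which did not pass the two-sided Fisher's exact test (p = 0.154, adjusted p = 0.206 by Benjamini-Hochberg over 4 tests). With the strongest peaks of replicate 2 alone the odds ratio was 0.549 and passed (30 of 169 intronic against 35 of 124 independent genes, adjusted p = 0.0458 by the same exact test), and with those of replicate 1 alone it was 0.681 (28 of 169 against 28 of 124, adjusted p = 0.229). With hosts on the same strand only it was 0.533 (0.293 to 0.969, 23 of 142 against 33 of 124, p = 0.0495 and adjusted p = 0.0661 by the same exact test), and without genes in coding promoter windows it was 0.940 (0.475 to 1.86, 25 of 109 against 19 of 79, adjusted p = 1 by the same exact test). In that last alternative a gene was placed by its best summit or, without a peak, by its own start, so the exclusion depends on the peaks. For a peak of either kind the counts were 77 of 169 intronic genes (45.6%) and 66 of 124 independent genes (53.2%). The odds ratio was 0.736 (0.462 to 1.17), with an adjusted p of 0.237 by Fisher's exact test. Both intervals include 1 and reach down to 0.370 and 0.462. The 53 exon-overlapping genes had a thresholded peak in 10 cases (18.9%).

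The signals of both classes overlapped where a peak was present. The median was 46.7 at the 32 intronic genes (quartiles 34.1 to 64.9) and 43.3 at the 33 independent genes (34.001 to 66.9). Genes on the strand opposite to their host are not part of the host's transcript, and 9 of 27 such genes (33.3%, interval 18.6% to 52.2%) had a thresholded peak, against 23 of 142 (16.2%, interval 11.0% to 23.1%) on the host's strand. The 9 are ZK484.9, C04G6.12, C27H5.9, K02C4.7, B0334.12, T04A8.17, C07A9.14, Y55F3BR.9 and T03F7.8, with signals of 27.3 to 63.1. The intervals overlap, and the difference between the strands was not tested.

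Among the introns of host genes, those that hold a snoRNA had a thresholded summit more often. Such a summit fell in 37 of 168 snoRNA introns (22.0%, interval 16.4% to 28.9%) and in 9 of 697 other introns of the same hosts (1.29%, interval 0.681% to 2.44%). The other introns came from 120 hosts, fewer than the snoRNA introns did. Introns were pooled and not paired within a host. The odds ratio was 21.6 (10.2 to 45.8), and the difference passed the two-sided Fisher's exact test (adjusted p = 1.35e-19 over the 4 tests). The snoRNA class was proposed with earlier results in view, so this p-value is no independent support for peaks at snoRNA genes. Among all 48151 protein-coding introns of at least 82 bp, the length of the shortest snoRNA intron, 0.739% held a thresholded summit. Median lengths were 464.5 bp for snoRNA introns and 486 bp for the others, but the upper quartile was longer for snoRNA introns, at 1526 bp against 892 bp. There were 40 thresholded summits in snoRNA introns, or 11.0 per 100 kb, and 14 in the others, or 2.24 per 100 kb. Of the 40 summits in snoRNA introns, 31 lay within 200 bp of a snoRNA gene. With introns limited to the middle range of snoRNA intron lengths the shares were 27 of 84 and 2 of 415 (odds ratio 97.8), and outside promoter windows 19 of 80 and 3 of 475 (odds ratio 49.0).

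**Figure D2:**
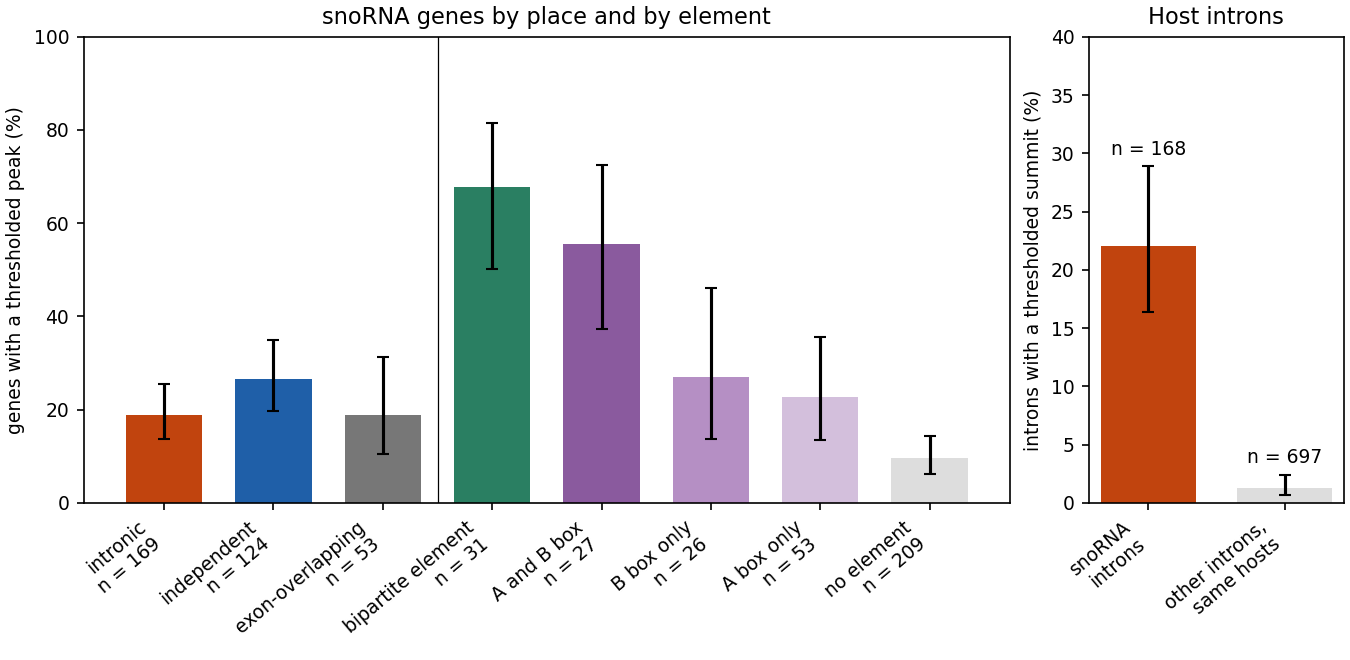
Left, percent of snoRNA genes with a thresholded peak by gene class and by the element near the start; right, percent of host introns with a thresholded summit. Bars start at 0, whiskers are Wilson 95% intervals, and n is the number of genes or introns. The share is 22.0% in snoRNA introns against 1.29% in the others. By element, it is 67.7% with the bipartite element and 9.57% with no element. The letters of the bipartite element were picked from the strongest members, which fixes part of this gap in advance, and it was not tested.

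The thresholded summits lay on the upstream side of the snoRNA. Of the 75 thresholded summits 72 lay upstream of the annotated start, and 64 lay 20 to 120 bp upstream. The median position was 62 bp upstream, with quartiles of -88.5 and -43 bp relative to the start. Intronic genes had a median of 52 bp upstream (quartiles -73.75 and -43 bp, n = 32), independent genes 67 bp (-88 and -48 bp, n = 33) and exon-overlapping genes 87 bp (n = 10). The 3 summits that were not upstream belong to K07C10.2 and B0334.12, 101 and 103 bp past the start, and W01H2.11, 21 bp past it. A window of 200 bp around the gene bounds these distances, and no test is attached to them; for comparison, the median was 30 bp upstream at tRNA genes and 38 bp at snRNA genes.

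Relaxed peaks were spread more widely. Of the 90 genes with a relaxed peak alone, 45 had the summit upstream of the start and 32 had it 20 to 120 bp upstream, and the median lay 11 bp past the start. In 22 of the 90 the summit was inside the snoRNA gene, against 1 of the 75 thresholded summits. The authors describe the relaxed lists as peaks together with background.

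**Figure D3:**
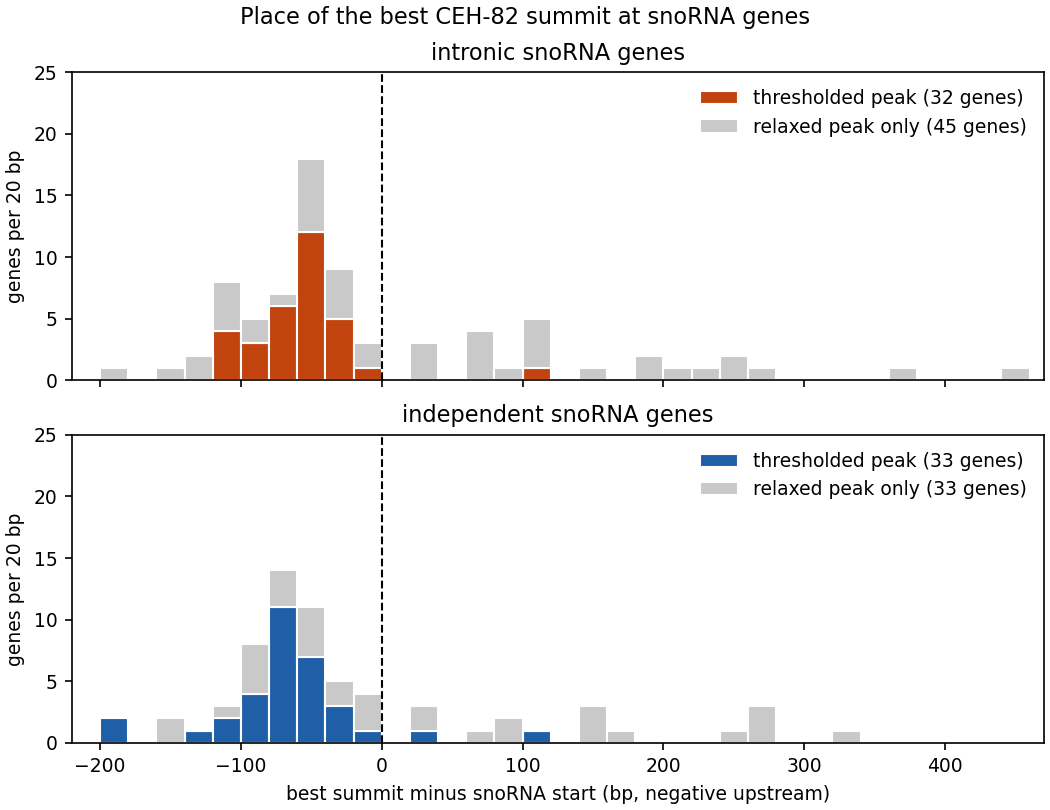
Position of the best summit relative to the annotated snoRNA start (horizontal, bp, negative upstream, dashed line at the start) for intronic genes above and independent genes below, as genes per 20 bp. Coloured bars are thresholded peaks and grey bars genes with a relaxed peak alone; the thresholded summits gather upstream of the start, with medians of 52 bp for intronic and 67 bp for independent genes.

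Part of the summits can also be assigned to coding genes. Of the 75, 27 lay in a promoter window of a protein-coding gene, which runs here 1000 bp upstream to 200 bp downstream of a transcript start. These were 7 of 32 at intronic genes, 14 of 33 at independent genes and 6 of 10 at exon-overlapping genes. The summits were taken within 200 bp of a snoRNA gene, and 72 of the 75 thresholded and 86 of the 90 relaxed ones were nearer to the snoRNA start than to any coding start. Of the 75, 41 were over 1000 bp from a coding start.

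The bipartite element was found within 150 bp upstream to 50 bp downstream of 31 snoRNA starts, searched on both strands. It was on the strand of the snoRNA at all 31. Of these genes 21 (67.7%, interval 50.1% to 81.4%) had a thresholded peak and 6 more a relaxed one. Read the other way, it stood at 21 of 75 genes with a thresholded peak (28%), 6 of 90 with a relaxed peak alone and 4 of 181 with none. The same window held it at 9 of 19973 protein-coding starts (0.0451%), 1 of 612 tRNA starts and 29 of 129 snRNA starts (22.5%). Because the letters were picked from the strongest members, these counts describe the genes and have no test.

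The bipartite element stood at genes of both classes, and 11 of 16 intronic and 10 of 15 independent genes with it had a thresholded peak. Its middle lay 48 to 74 bp upstream of the start at the 21 genes with a thresholded peak, with a median of 52 bp. The summit lay at the element or just downstream of it, from 1 bp before its middle to 43 bp past it, with a median of 11 bp, and within 20 bp at 17 of the 21. The median signal of these genes was 63.1; as the letters were picked from genes with strong peaks, this is not set against other genes. The 4 genes with the element and no peak were K02F6.11, W07G1.23, Y73B6A.14 and WBGene00220185.

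Across the genome the bipartite element matched 858 times. A thresholded peak lay at 21 of the 35 matches within 200 bp of a snoRNA gene, 5 of 27 near an snRNA gene, 2 of 34 near another noncoding gene, and 0 of 6 near a tRNA gene. Of the 756 matches with no noncoding gene nearby 0 had a thresholded peak, which allows a share of up to 0.397%, while 84 (11.1%) had a relaxed or thresholded one. In windows of 100 bp at summits, it stood at 20 of 74 thresholded summits of snoRNA genes and at 6 of the 1978 other thresholded summits. The letters were picked from sequences at the strongest of these same snoRNA peaks. Higher counts at snoRNA genes and summits are therefore partly fixed in advance, and none of these counts was tested.

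**Figure D4:**
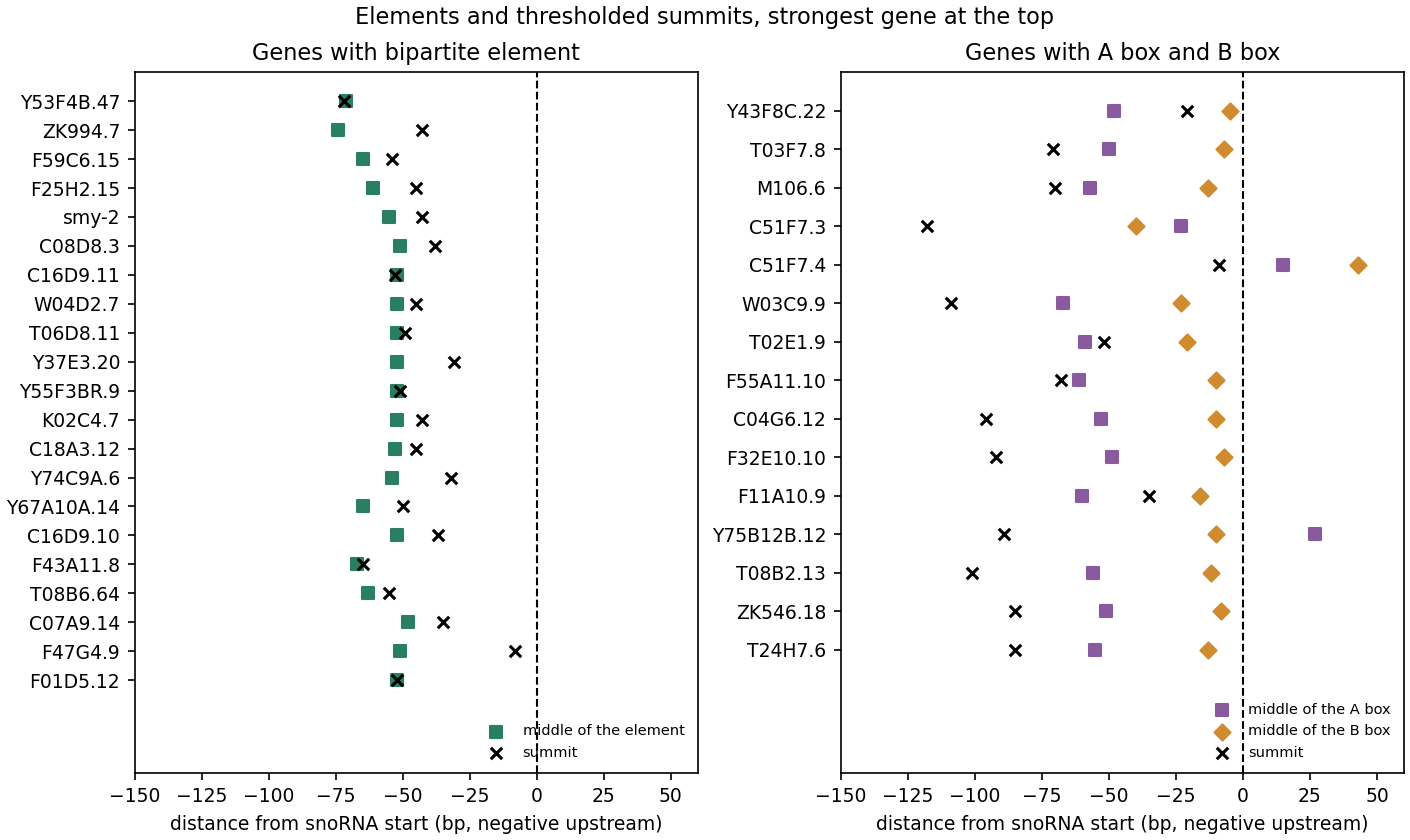
Place of the element (filled symbols) and of the thresholded summit (crosses) at each snoRNA gene, in bp from the annotated start (dashed), with the gene of highest signal at the top. Left, the 21 genes with the bipartite element, whose middle lies 48 to 74 bp upstream; right, the 15 genes with an A box and a B box, where the summit lies upstream of the middle of the A box at 12.

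The B box, searched on both strands in the same window, stood at 22 of 75 genes with a thresholded peak (29.3%, interval 20.2% to 40.4%) and at 31 of 271 without one (11.4%, interval 8.18% to 15.8%). The odds ratio was 3.21 (1.73 to 5.99), which passed the two-sided Fisher's exact test (adjusted p = 0.000841 over the 4 tests). The motif and the test were chosen with earlier results of these data known, so this p-value is no independent support. With only the thresholded peaks above the median signal the odds ratio was 1.90 and did not pass (10 of 42 against 43 of 304, adjusted p = 0.223 by the same exact test). By class, the B box stood at 12 of 32 intronic genes with a thresholded peak (37.5%), 6 of 45 with a relaxed peak alone and 8 of 92 with none. At independent genes it stood at 5 of 33 with a thresholded peak (15.2%), 4 of 33 with a relaxed peak alone and 11 of 58 with none, so the difference over all genes was not seen among the independent ones. The classes were not tested apart. The window held a B box at 5.59% of protein-coding starts. It held one at 6.54% of tRNA starts as well, since the B box of a tRNA gene lies past the end of this window in most tRNA genes, while an A box was found at 97.2% of tRNA starts. All 22 genes with a B box and a thresholded peak had one on the strand of the snoRNA, with its middle a median of 10 bp upstream of the start. Of the 20 genes with a B box and no peak, 13 had one on that strand.

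The remaining genes were sorted by the boxes they hold, on either strand and in any order, after those with the bipartite element had been set aside. A thresholded peak lay at 15 of 27 genes with an A and a B box (55.6%, interval 37.3% to 72.4%), 7 of 26 with a B box alone (26.9%), 12 of 53 with an A box alone (22.6%) and 20 of 209 with none of these elements (9.57%, interval 6.28% to 14.3%). These differences were not tested. At 13 genes with a thresholded peak an A box preceded a B box on the strand of the snoRNA within the stretch printed above. The strongest genes of this kind were Y43F8C.22, in Y43F8C.7, with a pooled signal of 72.7, and T03F7.8, opposite to cutl-18, at 62.4. M106.6, in mix-1, a condensin subunit gene, had 57.9. Y43F8C.22 had 19.96 in replicate 1 and 50.9 in replicate 2, T03F7.8 had 23.3 and 38.2, and M106.6 had 14.2 and 44.0, so replicate 2 scored higher at all 3.

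At the genes with an A and a B box the summit lay upstream of both boxes in most cases. Its median was 85 bp before the start (n = 15), against 45 bp for genes with the bipartite element (n = 21) and 76 bp for genes with none (n = 20). The A box had its middle a median of 53 bp and the B box 10 bp upstream of the annotated start. The summit lay a median of 30 bp upstream of the middle of the A box and was on that side at 12 of 15 genes.

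Genes without any of these elements were counted by class. A thresholded peak lay at 3 of 101 intronic genes with no element (2.97%, interval 1.02% to 8.37%), namely D1046.6, T04A8.17 and B0334.12, and at 13 of 71 independent genes with no element (18.3%, interval 11.0% to 28.8%). Of the 13 independent summits, 8 lay in a coding promoter window. With either the bipartite element or both boxes the counts were 20 of 31 intronic and 13 of 24 independent genes. The split was made after the peaks were seen and was not tested.

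Other short sequences were counted in the same window. TAATTA, the core recognised by many homeodomain proteins, stood at 1 of 75 genes with a thresholded peak, 19 of 271 without one and 10.4% of protein-coding starts. TATAAA stood at 11 of 75, 42 of 271 and 28.53% of coding starts. GAGAG stood at 42 of 75 (56%), 95 of 271 (35.1%) and 30.1% of coding starts. All were searched on both strands of the same 200 bp window and were not tested. In windows of 100 bp at the summits, TAATTA stood at 0 of 74 thresholded summits of snoRNA genes and 27 of 1978 other thresholded summits (1.37%). TATAAA stood at 9 of 74 (12.2%) and 58 of 1978 (2.93%), and GAGAG at 26 of 74 (35.1%) and 949 of 1978 (47.98%).

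Among the hosts, 62 of the 149 genes that hold an intronic snoRNA gene (41.6%) had a thresholded summit in their own promoter window, against 9.91% of all 19973 protein-coding genes. The 13 hosts that encode ribosomal proteins, among them rpl-7, rpl-4, rps-13 and rps-4, all had one. A thresholded peak lay at 0 of their 19 snoRNA genes, which allows a share of up to 15.8% (3 counts of 19), and 5 had a relaxed one. Of these 19 genes 18 had none of the elements, 0 had the bipartite element and 0 had both boxes. The translation factor hosts eef-1G and iff-2 both had a promoter peak, and 0 of their 3 snoRNA genes had a thresholded peak. Ribosomal protein hosts were singled out after their values had been seen.

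Hosts of the intronic genes with a peak were counted in the same way. Of the 32 hosts of intronic genes with a thresholded peak, 10 had a promoter peak themselves, among them mix-1, cfim-2, cogc-3, fars-1 and C33A12.3. At 6 of the 32 snoRNA genes (D1046.6, F55A11.10, K02C4.7, Y37E3.20, Y71F9AM.7 and smy-2) the peak of the snoRNA is itself inside the promoter window of the host. Without the snoRNA genes in ribosomal protein hosts, 32 of 150 intronic genes had a thresholded peak, against 33 of 124 independent genes (odds ratio 0.748, adjusted p = 0.398 by Fisher's exact test).

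The genes that encode the proteins of snoRNA particles also had peaks. Of 14 names listed, 8 matched a gene name in the annotation, and 7 of the 8 had a thresholded summit in the promoter window. Names without a match were not looked up under other names, so they need not be further genes. The methyltransferase of box C/D particles, fib-1, had a signal of 85.3, and its core partners nol-56 and nol-58 had 58.3 and 48.4. The pseudouridine synthase of box H/ACA particles, dkc-1, had 33.0, and nola-3 of the same particle had 57.0. Y48A6B.3 had 75.1 and snu-13, a protein of box C/D particles, 37.5. The remaining match, gar-1, had no thresholded summit. It matched by name alone and is not a gene of snoRNA particles in this nematode. A list of genes for RNA polymerase III and its factors, which also holds the nuclear pore protein gene npp-13, matched 17 genes. Of these 4 had a thresholded summit: tftc-1 at 86.4, snpc-3.4 at 51.6, npp-13 at 48.7 and rpc-1 at 23.8. These stand beside the 9.91% of all protein-coding genes; both lists were written with earlier results of these data known.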

How the data were processed

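ChIP-seq of tagged CEH-82 in whole L1 larvae gave 2 biological replicates in 1 group, so no pairing or comparison between groups arises. The deposited narrowPeak lists on ce11 were used: a list for each replicate (16551 and 30000 peaks), a pooled relaxed list, and a list of peaks kept by the authors for their reproducibility between replicates (irreproducible discovery rate). The signal of a peak is the authors' score, as deposited. The −log10 q values deposited by the authors were 3.81 at every named member and were not used to rank. Aligner, caller, threshold and read depth: not given in the sources used here. Lists on ce10 were not used here. Genes came from Ensembl release 115 and sequences from the RefSeq copy of WBcel235.

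A summit counted for a gene within 200 bp of it. Introns are gaps between merged exons, and motifs were searched from 150 bp upstream to 50 bp downstream of the start. The 4 tests are Fisher's exact tests, two-sided, with p-values adjusted over the 4 by Benjamini-Hochberg at 0.05, and odds ratios have Wald intervals; other shares are descriptions with Wilson 95% intervals. P-values and intervals cover the counting of genes or introns, not the spread between animals. Near-identical genes were found by edit distance. The members, lists, motifs and tests were chosen with earlier results of these data known. Genes were named as the 12 strongest, the 5 strongest intronic and the 5 strongest independent, the 4 strongest with a relaxed peak alone and the 3 with the most different replicate ranks, with hosts and nearest coding starts; any other gene was named after its values were seen. Alternatives left out each replicate (the 2052 strongest peaks of the other replicate alone), used stricter peaks, other distances, windows, strands, introns or motifs, merged neighbouring genes, or left out genes in promoter windows. For the last of these, a gene was placed by its best summit or, without a peak, by its own start. A further 4 alternatives were added once the data had been seen. Both the exact test and the peak search were tested on simulated data. Python 3.11.15, NumPy 2.4.6, SciPy 1.17.1, matplotlib 3.10.9 and edlib 1.3.9.post1 were used.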

Additional observations from a re-analysis of the deposited data

How the results depend on the processing

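The snoRNA intron difference kept its direction and passed the exact test in all 5 alternatives, with odds ratios of 16.6 to 97.8. All of them rest on the same class, which was proposed with earlier results in view. The count of genes with a thresholded peak was 65 to 75 when a replicate was left out, 42 with only the peaks above the median signal and 48 of 227 without genes in promoter windows. Between intronic and independent genes, leaving out a replicate gave odds ratios of 0.549 to 0.681 for a thresholded peak and, since the same strongest peaks stand in for both lists, for a peak of either kind; without replicate 1 the adjusted p was 0.0458 in each. For a thresholded peak the odds ratio ran from 0.533 (hosts on the same strand, adjusted p = 0.0661 by Fisher's exact test) to 0.940 (without genes in promoter windows, adjusted p = 1 by the same exact test) over its 10 alternatives. Without genes in promoter windows the odds ratio for a peak of either kind reversed to 1.04 (adjusted p = 1 by Fisher's exact test), and the cause was not tested. With the whole relaxed list of replicate 1 or 2 it was 0.802 or 0.655. The B box passed in 8 of 9 alternatives (odds ratios 1.90 to 3.70), and not with the stricter peaks (1.90), which leave 42 genes. The B box test, too, was chosen with earlier results of these data known. The median summit position was -60 and -58 bp without replicate 1 and 2, -52 bp with stricter peaks, -53 bp within 100 bp, -68 bp within 500 bp and -54 bp without genes in promoter windows, against -62 bp. All of these lie upstream. They moved by more than 1.41 bp, the SD of the medians from the 2 replicate lists. That SD does not measure the spread over genes, where summits of the replicates differed by a median of 21 bp. A stricter threshold for a peak of either kind was not run, because the pooled list holds every thresholded peak. No paired analysis was possible because there is 1 group. Read depth is unknown, so the absence of a peak says only that none was called.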
